A study of Capra hircus with 24 samples.

Results

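The comparison described here sets milk somatic cells of Polish White Improved goats (PWI) against those of Polish Fawn Improved goats (PFI). It rests on the 8 arrays whose labels give milk somatic cells as the source, 4 of each breed, out of 24 arrays in the series. The other 16 arrays came from blood (nuclear cells, PNCB) and from milk fat (fat globules, MFG) of the same numbered goats, again 4 of each breed. All animals were healthy females in lactation number 3, and no treatment was given. Cy5 marked the goat's own RNA throughout. The Cy3 channel held 1 common reference, a pool of blood nuclear cell RNA of 7 goats in lactation number 4, of which 4 were PWI and 3 PFI. Every value is therefore a log2 ratio of a goat's sample to that pool, and a difference between breeds is a difference of such ratios, PWI minus PFI. The labels name each goat by breed and number, and the goats were taken as separate animals.

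Milk somatic cells (MSC) are the cells that can be spun out of milk. They are a mixture of leukocytes, such as neutrophils, macrophages and lymphocytes, with epithelial cells shed from the secretory lining of the udder. In goats, milk is secreted partly by pinching off cytoplasm, so cell-derived particles also occur in milk. Milk fat globules are lipid droplets wrapped in membrane of the secreting epithelial cell, and they carry small amounts of its cytoplasm and RNA. The mixture of cells in milk is known to vary with udder health, stage of lactation and the individual animal. In bulk RNA, fewer cells of a type and less RNA per cell cannot be told apart.

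The array was designed for cattle transcripts and was hybridised with goat RNA. The files give a transcript accession for a probe but no symbol. None of them could be named from the goat gene table at hand (0 of 26748 matched). Genes are therefore given here by probe and accession, the labelled cell type was not checked against named markers, and the lists of milk protein, fat synthesis, immune and cell type genes were not evaluated. Each breed lay on 1 slide in MSC, and the effect of the slide and that of the breed cannot be told apart.

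No probe differed between the breeds in milk somatic cells after adjustment for multiple testing. Of 24948 probes tested, 0 (0%) passed an adjusted p of 0.05 (limma, Benjamini-Hochberg, n = 4 goats of each breed), and the smallest adjusted p was 0.321. At an unadjusted p under 0.05 there were 1034 probes, 4.14% of those tested, fewer than the 5% that p-values spread evenly over their range would give. Of these, 412 (1.65%) were higher and 622 (2.49%) lower in PWI. That split depended on the scaling: higher probes made up 39.8% of the 1034, but 68.0% with median centring in place of loess, 52.9% with the Cy5 channel alone and 50% in the deposited log ratios. Over all tested probes the differences centred close to 0, with a median of -0.00347 (log2).

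The measured differences were small. The median absolute breed difference was 0.113 on the log2 scale, and 95% of the tested probes had one below 0.415. A change of at least 2-fold was measured at 37 probes (0.148%), of which 17 (0.0681%) were higher and 20 (0.0802%) lower in PWI. The 95% confidence interval of the breed difference had a median half-width of 0.343 (log2). It lay wholly within 2-fold in either direction for 22839 probes, 91.5% of those tested, and within 1.5-fold for 66.4%. For the remaining probes a 2-fold difference between the breeds was not bounded by 4 goats a group. The share within 2-fold was 99.2% in the dimmest of 4 equal classes of brightness and 79.3% in the brightest, which held 22 of the 37 probes with at least 2-fold. The ratios carry an offset of 50 in both channels, against median net Cy5 signals of 18.5 to 35 on the milk cell arrays. Such an offset pulls the ratios of dim probes toward 0 and narrows their intervals. The narrow intervals of dim probes are therefore no evidence that the breeds are alike there. The share within 2-fold was 91.6% with no background correction and 51.6% in the scanner's processed signals. Those signals differ in background handling, the offset included, and in dye normalization.

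The reference channel shows how far signal moved between the slides for 1 RNA, since the same pooled RNA was hybridised to all 8 arrays. The spread of Cy3 within a slide is technical and holds no variation among goats. The count of small Cy3 p-values is therefore no background for that of the ratio. Cy3 was quantile normalized between the arrays, not by loess, and tested with limma between the slide that held PWI and the slide that held PFI. The Cy3 signal differed at an unadjusted p under 0.05 at 3700 probes (14.8%) and at an adjusted p under 0.05 at 17 probes (0.0681%). It differed at least 2-fold at 6 probes (0.0241%). The absolute difference between the slides had a median of 0.0628 (log2) in Cy3 and of 0.102 in Cy5 tested alone. Cy5 tested alone after quantile normalization gave 495 probes at an unadjusted p under 0.05. The reference thus gave more small p-values between the slides than the ratio or Cy5 did, with smaller differences. The 17 calls fell to between 0 and 5 when any 1 array was left out, and their number was 80 with median centring.

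**Figure D1:**
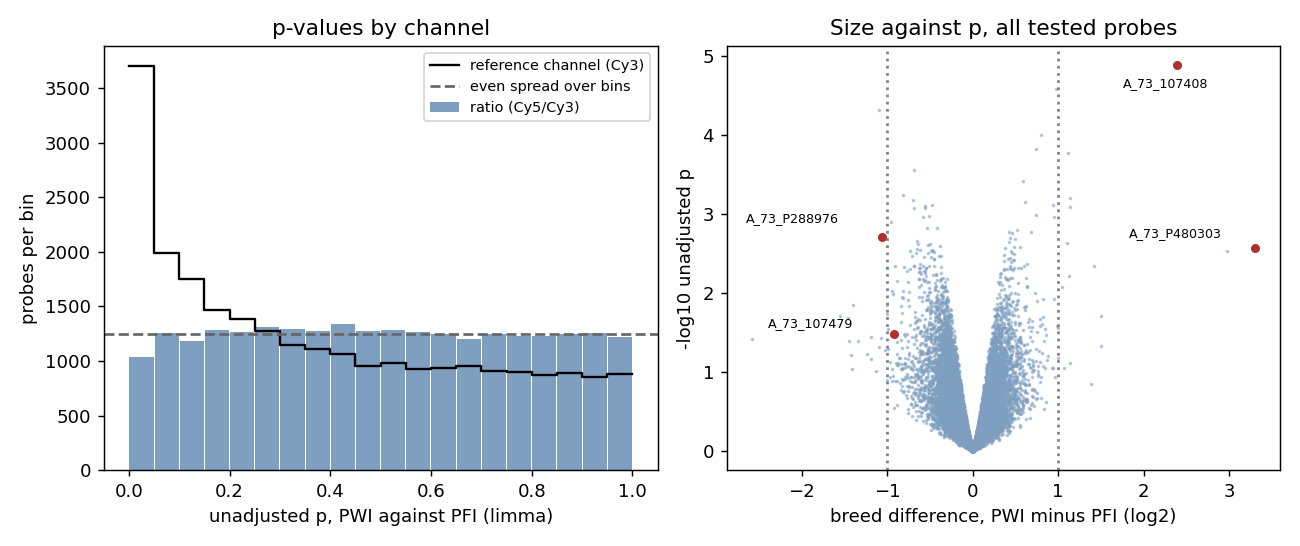
Left, the number of tested probes in 20 bins of unadjusted p for PWI against PFI in milk somatic cells, for the ratio (bars) and for the reference channel (line), with the number per bin that an even spread would give (dashed). The ratio has 1034 probes in the lowest bin and the reference channel 3700. Right, each point is 1 of 24948 tested probes, with the breed difference in log2 units against -log10 of the unadjusted p. The dotted lines mark 2-fold, and the 4 red points are the probes named in the text.

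The first and largest axis of variation among the 8 arrays did not order by breed. Over 16788 probes measured on all 8, the correlation across probes was 0.891 on average for the 12 pairs of goats of the same breed and 0.895 for the 16 pairs of goats of different breeds. Within PWI it averaged 0.925 and within PFI 0.857, and single pairs ranged from 0.762 to 0.963. The arrays share a reference, a print design and the abundance profile of the tissue, which all raise these values. Of the variation among the log2 ratios, measured as sums of squares, 11.9% lay between the breeds, against the 14.3% that its share of the degrees of freedom alone would give. The first principal component held 57.1% of the variance and the second 14.8%. PWI goat 4 and PFI goats 1 and 4 lay at the low end of the first component (-40.5, -35.7 and -28.1), PFI goats 3 and 2 at the high end (35.5 and 44.4), and PWI goats 1, 2 and 3 between them (-1.05, 12.9 and 12.5). The array most like that of PWI goat 4 was PFI goat 1, with a correlation of 0.960. PFI goats 2 and 3 were each other's nearest array (0.944), as were PWI goats 2 and 3 (0.963). The PFI goats thus held one pair at each end of the component, and the PWI goats lay between these pairs except for goat 4. In each breed, goats 1 and 4 scored lower on the first component than goats 2 and 3. Equal goat numbers mark the same array position on the slides. Variation among goats and an effect of array position therefore cannot be told apart on this component. On the second component PWI goats 1 to 4 lay at 1.16, -12.5, -21.1 and -10.8 and PFI goats 1 to 4 at -4.69, 2.60, 15.4 and 29.9. The PWI goats were thus mostly lower there, and the breeds overlapped through PWI goat 1 and PFI goat 1.

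The order along the first component went with the levels of probes that separate the other RNA sources. Probes were sorted into classes by the MFG and PNCB arrays alone, with no MSC array used: 698 were at least 4-fold higher in fat globules than in blood at an adjusted p under 0.05, 1260 at least 4-fold higher in blood, and 22870 in neither class. In milk cells, the median log2 ratio of the fat globule class was 2.13, 1.97, 1.91 and 2.53 in PWI goats 1 to 4. In PFI goats 1 to 4 it was 2.50, 1.41, 1.71 and 2.36. The median of the blood class was -1.64, -1.52, -1.55 and -1.81 in PWI goats 1 to 4 and -1.90, -1.29, -1.25 and -1.89 in PFI goats 1 to 4. The distance between the class medians was widest in PFI goat 1 (4.40), PWI goat 4 (4.34) and PFI goat 4 (4.25), the 3 goats at the low end of the first component. It was narrowest in PFI goats 2 and 3 (2.70 and 2.96), the goats at its high end. Array signal followed the component too. PWI goat 4, PFI goat 1 and PFI goat 4 had the lowest shares of probes with Cy5 well above background. These were 51.2%, 51.5% and 54.5%, against 56.3% to 60.9% in the other goats. Their median net Cy5 was also lowest (18.5, 20 and 23, against 25 to 35). The part of array signal in the component was not tested. Across 16749 probes, the loading on the first component and the MFG minus PNCB difference had a correlation of -0.559, as a description over probes of the same goats and reference.

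**Figure D2:**
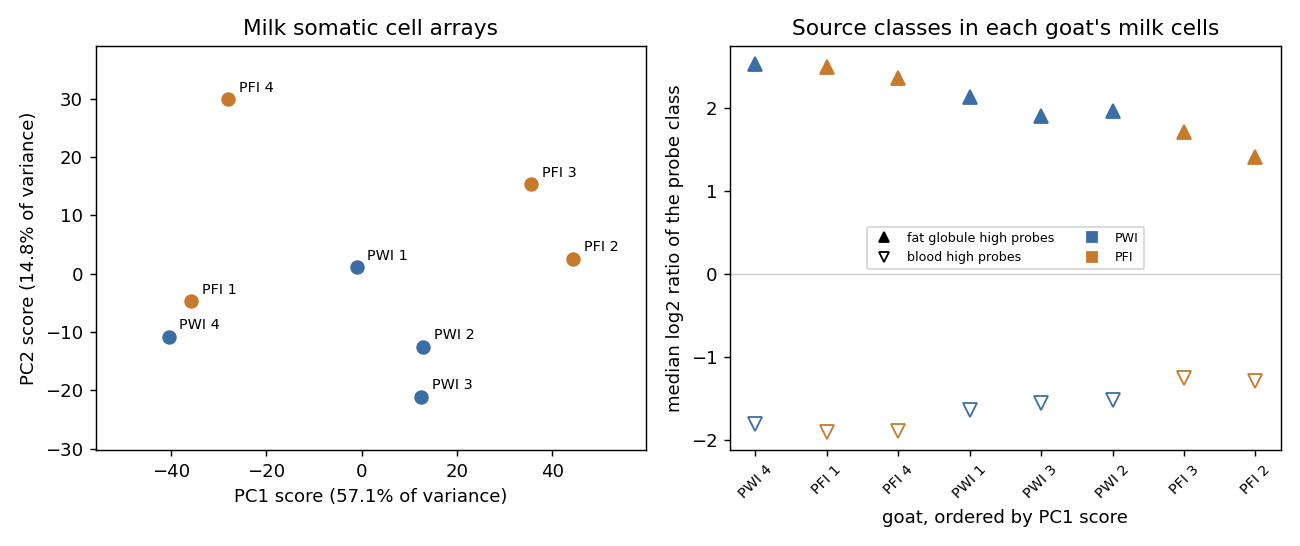
Left, the 8 milk somatic cell arrays on the first and second principal components of their log2 ratios, coloured by breed and labelled with breed and goat number. Right, for each goat in order of its first component score, the median log2 ratio in milk cells of the probes high in fat globules (filled triangles) and of those high in blood (open triangles). The fat globule class runs from 2.53 in PWI goat 4 to 1.41 in PFI goat 2, and goats of both breeds lie along the range.

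The breeds overlapped in both classes. The mean over goats of the fat globule class median was 2.14 ± 0.28 in PWI and 2.0 ± 0.52 in PFI, and that of the blood class was -1.63 ± 0.13 and -1.58 ± 0.36 (SD, n = 4 each). At an unadjusted p under 0.05, 25 fat globule class probes were higher and 1 lower in PWI, 3.72% of the class. Among all tested probes the share was 4.14%, with 412 (1.65%) higher and 622 (2.49%) lower. The share of the class was thus near that of all probes, while its split leaned to higher in PWI. That split was not tested. In the blood class 15 were higher and 34 lower (3.89%), and in neither class 372 were higher and 586 lower (4.19%). None of the classes held an adjusted call. The goats of a breed differed more from each other in the probes that separate the sources. The median SD within a breed was 0.49 (log2) in the fat globule class and 0.42 in the blood class, against 0.20 in the rest. The breed difference was bounded within 2-fold by its interval for 61.2% of the fat globule class and 68.2% of the blood class, against 93.8% of the rest. A breed difference of 2-fold was therefore bounded least often in the fat globule class.

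Measures of array quality differed between the breeds by less than the spread of the goats. The share of probes with Cy5 well above background was 56.4% ± 3.81 in PWI and 56.2% ± 4.08 in PFI, and the 100 brightest probes took 24.8% ± 1.97 and 24.7% ± 4.23 of the net Cy5 signal (SD, n = 4 each). Exact two-sided permutation tests over the 70 splits of the goats gave p-values between 0.171 and 1 for 7 such measures, with all adjusted values at 1. The smallest p that 4 against 4 allows is 0.0286.

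The count of small p-values depended on 1 goat more than on any other. Without PFI goat 1 there were 2146 probes at an unadjusted p under 0.05, against 1034 with all goats. Without each of the other 7 goats in turn the count lay between 696 and 1061. With each of the 8 goats left out in turn, the number of adjusted calls was 0. PFI goat 1 had the second-lowest share of probes well above background among the 8 (51.5%) and the highest share of signal in its 100 brightest probes (30.2%). When arrays were weighted by their agreement with their group, its weight was the lowest, 0.511, against 2.17 for PWI goat 2, and 1492 probes then had an unadjusted p under 0.05.

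**Figure D3:**
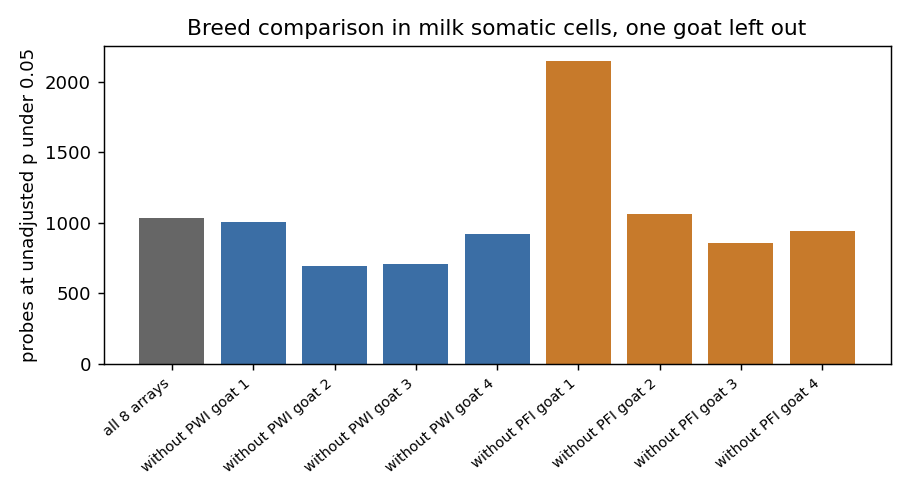
Bars give the number of tested probes with an unadjusted p under 0.05 for PWI against PFI in milk somatic cells, with all 8 arrays (grey) and with each PWI goat (blue) or PFI goat (orange) left out. The count is 2146 without PFI goat 1 and between 696 and 1061 without any other goat.

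Since no probe passed the threshold, the probes with the largest differences are given as values, by a rule that asks for complete separation of the breeds. Of 16763 probes measured and well above background on all 8 arrays, the 4 PWI values all lay above the 4 PFI values at 206 (1.23%) and all below them at 284 (1.69%), together 490 (2.92%). The 12 accessions with the largest difference in each direction were taken. The 12 higher in PWI had differences between 0.68 and 3.31 (log2), or 1.60- to 9.89-fold, with adjusted p between 0.321 and 0.991 (limma). The 12 lower in PWI had differences of 0.69 to 1.06 in size, or 1.61- to 2.09-fold, with adjusted p between 0.983 and 0.991. The rule used these values, so the separation itself is no finding. The reference channel also moved at these probes, and a higher Cy3 signal lowers the ratio. At the 12 lower probes Cy3 was higher on the PWI slide by 0.07 to 0.75, except at A_73_P047356 (-0.03). At the 12 higher ones it went both ways, from -1.62 at A_73_P084533 to 1.06 at A_73_P480303. The part of these shifts in the ratio differences was not tested. Other RNA of the same goats on other slides was not used by the rule. At an unadjusted p under 0.05, 873 of 24898 probes (3.51%) differed between the breeds in PNCB and 2168 of 24868 (8.72%) in MFG, and 2 (0.00803%) and 2 (0.00804%) passed an adjusted p of 0.05. Among the leads, 8 of the 12 higher probes had the same sign in PNCB, 4 of them at an unadjusted p under 0.05, where 2.12% of the probes were higher at that p. In MFG 8 of the 12 had the same sign, 3 at that p, against 1.78%. Of the 12 lower probes, 6 had the same sign in PNCB, 1 at that p (1.39% of all), and 10 in MFG, 5 at that p (6.94% of all). The MFG arrays of PWI goats 2 and 4 stood apart, with 84.6% and 75.3% of probes well above background in Cy5 against 44.1% to 51.5% on the other 6. The PNCB arrays of PWI goats 3 and 4 stood apart in Cy3, with 20.4% and 19.9% against 43.2% to 46.5%. Without these arrays the same sign was found in PNCB at 9 of the 11 higher leads with a value, 3 at that p (3.09% of all), and at 4 of the 12 lower ones, 2 at that p (3.83% of all). In MFG it was found at 10 of 10 higher leads, 5 at that p (3.15% of all), and at 7 of 10 lower ones, 5 at that p (3.17% of all). The percentages are for probes with that sign and that p. No share of all probes was computed for the sign alone, so the sign counts have no background here. Other probes of the same accessions had the same sign at 12 of 14 for the higher leads and 19 of 21 for the lower ones. For comparison, the 2 brightest probes were taken from each accession with at least 2 tested probes well above background on all 8 arrays. The second had the same sign in 202 of the 234 whose first probe had an unadjusted p under 0.05. The sign counts of the leads, over all their tested probes, are near that share. With the same sign and such a p were 5 of the 14 and 11 of the 21, against 55 of the 234. That contrast was not tested.

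The lead with the largest difference was A_73_P480303, for accession NM_001098467. Its log2 ratios in milk cells were 3.28, 3.85, 4.31 and 4.42 in PWI goats 1 to 4 and 0.92, 1.59, 2.17 and -2.04 in PFI goats 1 to 4. All PWI goats were high, and the PFI goats were lower and spread widely, with goat 4 far below the others. The means were 3.97 ± 0.52 and 0.66 ± 1.87 (SD, n = 4 each), a difference of 3.31 (SE 0.80, 95% interval 1.49 to 5.13, limma adjusted p = 0.991), or 9.89-fold. Without PFI goat 4 the difference was 2.41, with a limma adjusted p of 0.951. In blood cells the same probe lay between -0.86 and -0.18 in all 8 goats, with a breed difference of -0.03. In fat globules it was 4.19, 3.84 and 3.90 in PWI goats 2 to 4, with goat 1 left out for an outlier flag. In PFI goats 1 to 4 it was -2.53, 3.77, 3.99 and -2.86. There PFI goats 2 and 3 lay with the PWI goats, while PFI goats 1 and 4 were lower by more than 6 log2 units. PFI goat 4 was thus the lowest goat in both milk sources, and PFI goat 1 was low in fat globules and the second-lowest in milk cells. The breed difference in fat globules was 3.39 (SE 1.81, limma adjusted p = 0.528).

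A second probe of that accession followed the same goats. A_73_P507873 read 3.25, 3.73, 4.22 and 4.36 in milk cells of PWI goats 1 to 4 and 1.23, 1.75, 2.23 and -1.56 in those of PFI goats 1 to 4, a difference of 2.98 (SE 0.73). In fat globules it read 5.28, 4.51, 4.23 and 4.18 in the PWI goats, -1.95 and -2.19 in PFI goats 1 and 4, and 4.10 in PFI goat 2, with PFI goat 3 flagged. Another probe, A_73_P174822, differed by 0.73 (SE 0.22) in milk cells, and PFI goats 1 and 4 were again lowest in fat globules (-2.78 and -2.87). The remaining pair of tested probes for the accession, A_73_P042664 and A_73_P340841, differed by 0.09 and 0.01. The reference signal also differed between the slides at these probes: Cy3 was higher on the PWI slide by 1.06 (SE 0.14) at A_73_P480303 and by 1.5 (SE 0.18) at A_73_P507873, on arrays where the Cy5 signal differed by 4.97 and 5.15. The ratio differences, 3.31 and 2.98, were smaller than those of Cy5. The part of the Cy3 shift in the result was not tested.

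**Figure D4:**
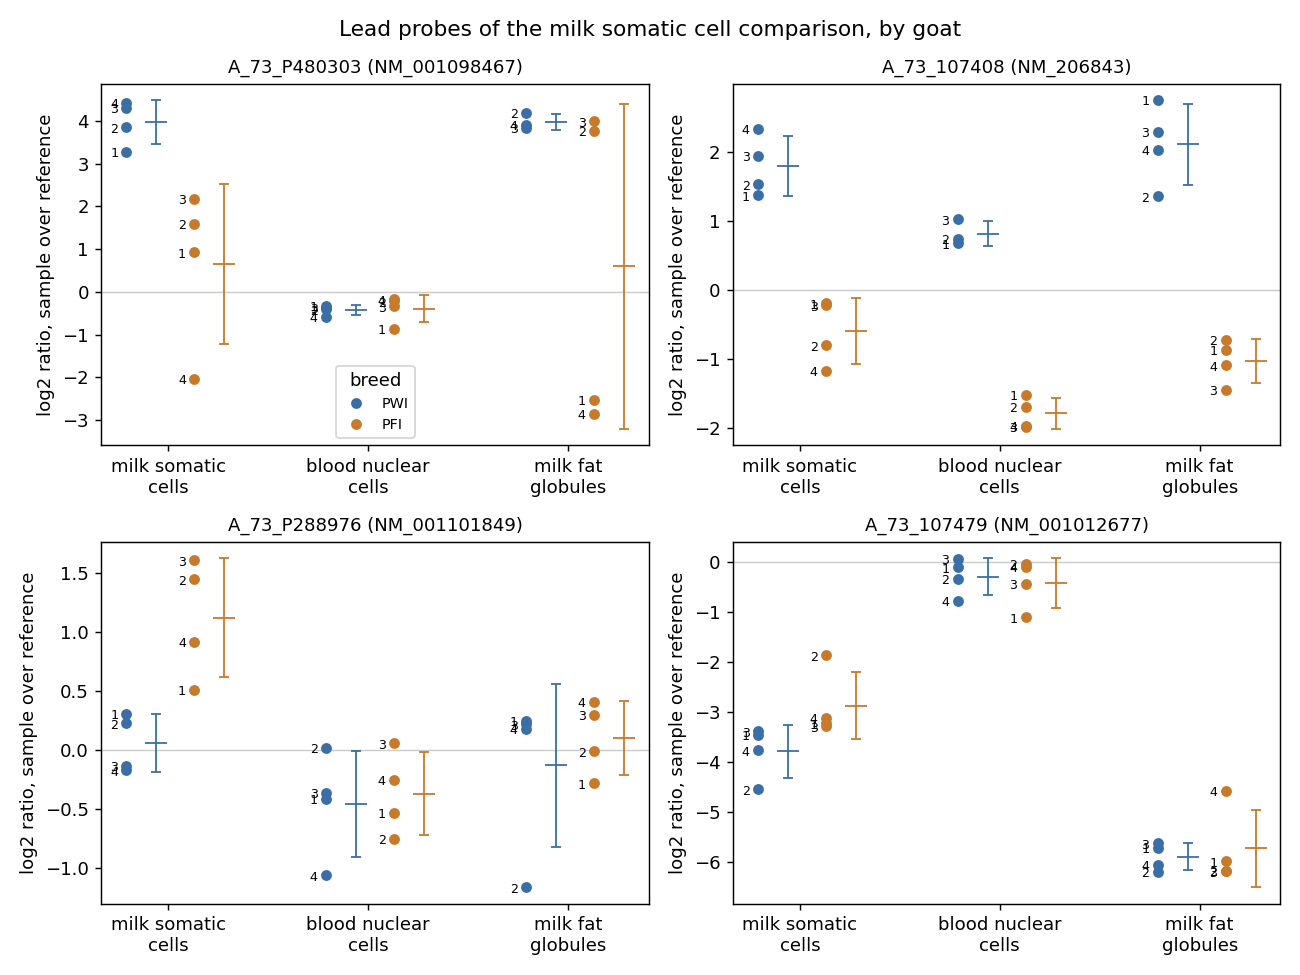
Points give the log2 ratio of sample over reference of each goat, labelled with the goat number, for 4 probes in 3 RNA sources, PWI in blue and PFI in orange. Horizontal ticks with bars are the mean and SD of the measured goats, and each panel has its own scale. A_73_P480303 separates PFI goats 1 and 4 from the rest in fat globules, and A_73_107408 separates the breeds in all 3 sources. All 4 probes were chosen for separation in milk cells. In both lower panels the breeds overlap in the other sources.

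The probe with the smallest p-value was A_73_107408, for accession NM_206843, and its breed difference was present in all 3 RNA sources. In milk cells it read 1.38, 1.54, 1.95 and 2.34 in PWI goats 1 to 4 and -0.19, -0.80, -0.22 and -1.17 in PFI goats 1 to 4. The lowest PWI goat lay above the highest PFI goat by more than the SD of either breed. The difference was 2.39 (SE 0.28, 95% interval 1.77 to 3.02), or 5.26-fold, with a limma adjusted p of 0.321 over 8 arrays. In 1 fit of all 24 arrays, which estimates the spread over all 6 groups, the same difference had an adjusted p of 0.000228 and was the only call among the tested probes. In blood cells the probe read 0.68, 0.75 and 1.03 in PWI goats 1 to 3, with goat 4 flagged, and between -1.98 and -1.52 in the PFI goats. That difference was 2.61 (limma adjusted p = 0.00176). In fat globules it was 3.15 (limma adjusted p = 0.0151), with PWI goats at 1.36 to 2.76 and PFI goats at -1.45 to -0.72. The difference in milk cells minus that in blood was -0.22 (SE 0.39, adjusted p = 0.993), and minus that in fat globules -0.75 (SE 0.38, adjusted p = 0.862).

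Several limits stand beside that probe. An earlier analysis of these same data had already called it between the breeds. Its differences in the other sources are therefore no fresh support. The call in fat globules was lost without any one of PWI goats 3 and 4 or PFI goats 1 to 4, with adjusted p between 0.0602 and 0.121, while the difference stayed between 2.93 and 3.40. In the scanner's processed signals and in the deposited log ratios the milk cell difference was 3.58, larger than the upper end of the interval above. Without the PWI arrays that stood apart, the difference was 2.51 in blood (adjusted p = 0.00232) and 3.56 in fat globules (adjusted p = 0.0015). The reference signal differed by 0.13 between the milk cell slides. The other tested probe of the accession, A_73_P437651, did not separate the breeds: it differed by -0.19 in milk cells (95% interval -0.89 to 0.51), 0.30 in blood and 0.03 in fat globules. Only 1 of the 2 probes of this accession therefore carries the difference. A difference in all 3 sources was not particular to A_73_107408. At an unadjusted p under 0.05 (limma) in each, A_73_P431111 differed by 0.97, 0.76 and 0.66 in milk cells, blood and fat globules. A_73_P109228 differed by 1.11, 1.59 and 1.24, and A_73_P262611 by -0.81, -0.79 and -0.61. Their limma adjusted p in milk cells was 0.321, 0.697 and 0.991.

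Of the leads lower in PWI, the one with the largest difference was A_73_P288976, for accession NM_001101849. In milk cells it read 0.31, 0.23, -0.13 and -0.17 in PWI goats 1 to 4 and 0.51, 1.45, 1.61 and 0.92 in PFI goats 1 to 4. PFI goat 1 lay close to the PWI goats, and PFI goats 2 and 3 were highest. The means were 0.06 ± 0.25 and 1.12 ± 0.50 (SD, n = 4 each), a difference of -1.06 (SE 0.24, 95% interval -1.62 to -0.51, limma adjusted p = 0.991). All 4 other tested probes of the accession were lower in PWI as well, by -0.82, -0.94, -1.0 and -0.64, each at an unadjusted p under 0.05. In the scanner's processed signals the first and last of these (A_73_P384281 and A_73_P310296) differed by -1.87 and -1.88. The difference was -0.08 in blood and -0.23 in fat globules, where the breeds overlapped, and 0.18 and 0.13 without the arrays that stood apart. The test of the milk cell difference against that in either other source did not pass (adjusted p = 0.993 against blood and 0.862 against fat globules). Between the milk cell slides, Cy3 at A_73_P288976 was higher on the PWI slide by 0.23 (SE 0.08), and Cy5 differed by -0.91 (SE 0.27).

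The second lower probe, A_73_107479 for accession NM_001012677, was far below the reference in all goats. It read -3.46, -4.55, -3.39 and -3.77 in PWI goats 1 to 4 and -3.23, -1.87, -3.29 and -3.12 in PFI goats 1 to 4. Apart from PWI goat 2 and PFI goat 2, the goats of both breeds lay within 1 log2 unit. The difference was -0.92 (SE 0.36, 95% interval -1.74 to -0.09, limma adjusted p = 0.991), and -0.58 without PFI goat 2. In fat globules the probe was lower still, between -6.20 and -4.58, and in blood it lay between -1.11 and 0.06. The milk cells were thus between blood and fat globules at this probe in every goat. The breed difference in milk cells was not shown to differ from that in blood (adjusted p = 0.993) or in fat globules (adjusted p = 0.862). The other pair of tested probes of the accession differed by -0.68 and -0.38.

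At 5 further probes, which an earlier analysis of these data had called between the breeds in blood or fat globules, the milk cells can be set beside the source of the call. A_73_120401 (NM_174213) was higher in PWI blood by 3.29 (limma adjusted p = 0.000148). It was well above background on 0 of the 8 milk cell arrays, where it read between -1.78 and -1.25. A signal as high as in blood of PWI goats 1 to 3 (1.22, 1.17 and 1.53) was thus not seen in milk cells. A breed difference near or below background could not be seen there. A_73_105187 (NM_001075950) was higher in PWI blood by 2.28 (limma adjusted p = 0.00538, 0.00644 without the arrays that stood apart, and 0.0799 without PWI goat 1 of that source). In milk cells it was well above background on all 8 arrays and differed by -0.02 (SE 0.18, 95% interval -0.44 to 0.39). The difference between the sources was -2.30 (SE 0.27, adjusted p = 0.000274). That test ran over 24831 probes with values in all sources, the named ones included. The 2 calls (0.00805%) were this probe and A_73_120401, and for the latter the test restates the blood difference, since its milk cell signal was near background. At an unadjusted p under 0.05 there were 1091 (4.39%). Against fat globules 0 (0%) were called by limma and 1109 (4.47%) had such a p.

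The probes called in fat globules were lower in PWI there and leaned the same way in milk cells of some PFI goats. Both probes of NM_001079789 were well above background in milk cells on 3 PFI arrays and on no PWI array, too few for the test. A_73_P096351 read 0.10, -0.04, -0.09 and -0.18 in PWI goats 1 to 4 and -0.01, 0.80, 1.20 and 1.63 in PFI goats 1 to 4. A_73_P261821 read -0.46, -0.17, -0.13 and -0.25 in the PWI goats and -0.02, 0.66, 1.02 and 1.49 in the PFI goats. At both, PFI goats 2, 3 and 4 were high and PFI goat 1 lay near the PWI goats. In fat globules the breed differences were -2.76 and -2.14 (limma adjusted p = 0.000837 and 0.00935), with all 4 PFI goats high at each. The probe A_73_P118486 (X64897) differed by -0.65 in milk cells (SE 0.24, limma adjusted p = 0.991), where it was well above background on 2 of 4 PWI and 4 of 4 PFI arrays. Its milk cell difference was -2.89 in the scanner's processed signals and in the deposited log ratios. In fat globules it differed by -2.68 (limma adjusted p = 0.0151). Without the fat globule arrays that stood apart, the 3 probes differed there by -2.83, -2.38 and -2.73, with adjusted p of 0.00178, 0.0015 and 0.000214. The fat globule call of A_73_P261821 was lost without PFI goat 2, 3 or 4 of that source (adjusted p between 0.0598 and 0.0921). That of A_73_P118486 was lost without any goat but PWI goats 2 and 4 (adjusted p between 0.0584 and 0.120).

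Across all probes, the breed differences in milk cells had little relation to those in blood. The correlation across probes was 0.0238 between milk cells and blood (19372 probes) and 0.187 between milk cells and fat globules (15852 probes). The sources come from the same goats and share the reference pool, and probes are not independent, so these values are descriptions. Different probes of 1 accession did agree in part. The 2 brightest probes were taken from each of 4718 accessions with at least 2 tested probes well above background on all 8 arrays. Their breed differences had a correlation of 0.659 and the same sign in 73.2%. Where the first probe had an unadjusted p under 0.05 (234 accessions), the second had the same sign in 202 and also such a p in 55. Both probes read the same RNA on the same slides, so this agreement holds for any difference between these 8 RNA samples and does not separate the breed from the goat. When the probes of an accession were averaged, 0 of 15463 accessions were called, 591 (3.82%) had an unadjusted p under 0.05, and the smallest adjusted p was 0.993.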

How the data were processed

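Per the file headers, the authors' scanner files were made with Agilent Feature Extraction 10.7.3.1 and hold median spot and background intensities of both channels, 0 or 1 flags, and processed signals. The values in the authors' deposited table are log10 ratios (Cy5 to Cy3), identical to those in the scanner files (largest difference 0). With R 4.3.3 and limma 3.58.1, spots with any outlier flag were removed, background was corrected by normexp (offset 50), and each array was normalized by loess without control spots. Spots of a probe were averaged, giving 43653 probes. The order of flag removal follows an earlier analysis. A probe was tested if Cy5 was well above background on at least 4 of the 8 MSC arrays and at least 2 arrays per breed had a value. Breeds were compared with lmFit and eBayes on log2 ratios, with Benjamini-Hochberg adjustment at 0.05. Differences between sources used 1 fit of 24 arrays. Fits of 24 arrays took the arrays of a goat as independent. With the goat as a random block over the sources, the consensus correlation was 0.0316. The named probes called by these differences then stayed at 2 against blood and 0 against fat globules. Fits outside MSC took the probes tested in MSC plus the named ones, and Cy3 was tested after quantile normalization. No spot was saturated, and the scripts were tested on simulated data.

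The comparison, the lists and the naming rule were chosen with earlier results of these data known. With fewer than 20 calls, the rule takes the 12 accessions of largest difference per direction whose breeds do not overlap on all 8 unflagged arrays well above background. With no gene names, 2 per direction are printed in full, with the other probes of their accessions and the probes called earlier. Only single values are given for a few other leads, which the counts of named probes leave out. No gene list was evaluated, and no sequence or position was given in the sources used here. Alternatives covered background, scaling, filters, flags, spread and leaving out each goat.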

Additional observations from a re-analysis of the deposited data

Results flagged for a closer look

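PWI goat 4 stood apart from its breed in milk cells in the share of net Cy5 signal taken by the 100 brightest probes, 27.8% against 23.8% to 23.9% in the other 3 goats. The same goat read -1.39 at A_73_120401, against -1.72 to -1.66 in the others, at a probe near background in every milk cell array. PFI goat 2 read -1.87 at A_73_107479, against -3.29 to -3.12 in the other PFI goats, and the breed difference at that probe was -0.58 without it. In each case 1 sample of a group of 4 lay farther from the next than Dixon's 95% limit. Of 52 groups of 4 examined, 3 held such a sample, and chance alone gives about 2.6.

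At A_73_120401 the breed difference in milk cells minus that in blood was -3.35, and at A_73_105187 it was -2.30 (limma interaction contrast, adjusted p = 0.000274 for the latter). At both, the blood difference rests on PWI goats 1 to 3, since goat 4 was flagged. The milk cell signal of the first was not well above background on any of the 8 arrays, so its contrast restates the blood difference. It cannot show a breed difference of milk cells that lies near or below background.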

How the results depend on the processing

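The count of adjusted calls in milk cells was 0 under 24 of 25 alternatives and 1 in 1 fit of all 24 arrays (0 to 0 with 1 goat left out). Probes at an unadjusted p under 0.05 numbered 1034, against 556 with median centring, 495 with Cy5 alone, 587 in 1 fit of all 24 arrays, 591 for accession means and 1972 without a filter, where more probes were tested. They numbered 696 to 2146 with 1 goat left out. The interval lay within 2-fold for 53.0% of probes in the deposited log ratios. Equal goat numbers mark different goats at the same array position, so the samples were not taken as paired. Their deviations nevertheless correlated at -0.19, 0.488, 0.361 and 0.62 for numbers 1 to 4, positive in 3 of the 4 pairs. The cause of that likeness was not tested. Goat number took 58.3% of the sums of squares, against 42.9% by degrees of freedom. With it as a replicate block, 0 probes were called and 1455 had an unadjusted p under 0.05. Of the named probes, 3 were called in blood, 0 with the block and 2 to 3 with 1 goat left out. In fat globules 4 were called, 2 with median centring, 2 with processed signals, 0 with the block and 1 to 4 with 1 goat left out. Reference channel calls numbered 17, against 80 with median centring, 3 with the block and 0 to 5 with 1 array left out. Reference probes at an unadjusted p under 0.05 ranged from 2938 to 3866 with 1 array left out. Over 53 results at single probes and 658 alternatives, 630 were counted as unchanged, 27 lost the call, 1 gained it and 0 of the called values reversed. Those counted as unchanged kept their side of the threshold, but small uncalled values among them could change sign. A_73_P437651 in milk cells, for example, went from -0.19 to 0.118 with flagged spots kept. The cause of these changes was not tested. The alternative that removed spots only for their own flags and the one that left out the blood and fat globule arrays that stand apart were added after seeing the data. The latter kept the counts of named calls at 3 and 4. The number of goats, 4 a breed, and signal over background limit the comparison.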
